A study of Mus musculus with 9 samples.

Results

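Glutathione transferases were followed across cultured mouse marrow stromal cells in which beta-catenin was depleted or Ezh2 was inhibited. The set holds 10 of the 23358 entries of the gene count table, taken by name: Gstm1, Gstm2, Gstm5, Gsta4, Gstp1, Gstt1, Gstt2, Gsto1, Gstk1 and Mgst1. The genes were chosen with results of these libraries known, so their differences between groups are given as a description. No p-value is printed for a member, and where a member is said to be called or past the threshold, this only places it by the rule applied to all genes and is no independent evidence of a difference. The 9 RNA libraries come from mesenchymal stem cells (MSC), multipotent stromal cells that can form bone, derived from the marrow of adult C57BL/6 mice and used between passages 4 and 10. All cultures were kept in osteogenic medium and lysed on day 4 after transfection. In the controls, named siCTL, a non-targeting siRNA was given alone. Cultures named GSK126 were given this siRNA together with the Ezh2 inhibitor GSK126 at 5 µM, Ezh2 being the enzyme that places the repressive methyl mark on histone H3. Cultures named siBcat were given siRNA against beta-catenin, the product of Ctnnb1, which carries Wnt signals to the nucleus and links cadherins to the cytoskeleton. For siBcat the titles name no inhibitor, while the treatment label also lists 5 µM GSK126, and the groups used here follow the titles. Each group has 3 biological replicates, and the labels do not say whether these came from separate animals.

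Glutathione transferases join the tripeptide glutathione to reactive, electrophilic compounds, which are then exported from the cell and broken down outside it. The cytosolic enzymes form classes (alpha, mu, pi, theta, omega and others), a separate kappa class sits in mitochondria and peroxisomes, and the microsomal enzymes are unrelated membrane proteins of the MAPEG family. Several of their genes are known targets of the transcription factor Nrf2, which binds antioxidant response elements. In stromal cells these enzymes belong to the defence against lipid peroxidation products and other oxidants.

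The mu class genes lie together on chromosome 3 of mm10: Gstm5 at chr3:107895854-107898685 on the plus strand, Gstm2 at chr3:107981702-107986436 and Gstm1 at chr3:108012250-108017973, both on the minus strand. Both theta class members lie on the minus strand of chromosome 10, in a cluster that also holds Gstt3 and Gstt4: Gstt1 at chr10:75783813-75798584 and Gstt2 at chr10:75831845-75834881. Gstp1, the pi class member, is at chr19:4035411-4037912 (minus strand), and Gsto1, of the omega class, at chr19:47854989-47864788 (plus strand). The alpha class gene Gsta4 is at chr9:78191966-78209349, the kappa class gene Gstk1 at chr6:42245935-42250441 and the microsomal gene Mgst1 at chr6:138140537-138156752, all on the plus strand. Paralogues in this family can share reads. Of the stretches of 50 bases in the Gstp1 transcript (GENCODE M21), 62.3% also occur in another gene, Gstp2 or the pseudogene Gstp-ps, and 23.1% of those in Gstm1 also occur elsewhere, mainly in Gstm2-ps1 and Gstm3. The share was 9.36% for Gstm2 and 0.726% for Gstt2, and it was 0% for the other 6 members. How such reads were counted is not given in the sources used here, so the values of Gstp1 and Gstm1 are uncertain in this respect. Exons of Gstm5 overlap the antisense gene 4933431E20Rik, and without a stated strand setting reads of both genes cannot be told apart.

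Promoter windows from RefSeq (GRCm38.p6, 250 bases before to 50 after the start) were at hand for 8 members, all but Gsta4 and Gstt2. The upstream sequences of Gstm1 and Gstt1 are shown because these genes differed most between siBcat and siCTL among the members with a window. Those of Gstm5, Mgst1 and Gstp1 are shown because they hold a searched motif, in capitals. Each is written 5′ to 3′ on the strand of its gene.
Gstm1, chr3:108017974-108018153, minus strand: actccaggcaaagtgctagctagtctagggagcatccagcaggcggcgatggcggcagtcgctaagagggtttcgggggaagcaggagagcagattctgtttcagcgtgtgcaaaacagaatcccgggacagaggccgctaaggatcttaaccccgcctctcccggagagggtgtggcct
Gstt1, chr10:75797732-75797911, minus strand: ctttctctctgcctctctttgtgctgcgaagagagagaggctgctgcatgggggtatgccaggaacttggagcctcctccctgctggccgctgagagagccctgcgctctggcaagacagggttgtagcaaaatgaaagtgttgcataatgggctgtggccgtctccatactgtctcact
Gstm5, chr3:107895674-107895820, plus strand: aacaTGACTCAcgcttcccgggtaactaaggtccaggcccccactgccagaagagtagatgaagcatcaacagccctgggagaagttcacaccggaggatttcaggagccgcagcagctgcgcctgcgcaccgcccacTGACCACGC
Mgst1, chr6:138140461-138140489, plus strand: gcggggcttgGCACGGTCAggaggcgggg
Gstp1, chr19:4037970-4037996, minus strand: tccaacgtgtTGAGTCAgcatccgggg
The core of the antioxidant response element, TGACNNNGC on either strand, was found in the 250 upstream bases of 2 of the 8 members. In Gstm5 it lies at bases -42 to -34 from the start, and in Mgst1 at -56 to -48 on the opposite strand, where the printed match reads GCACGGTCA. Of all 32851 windows, 10.2% hold this motif. An AP-1 motif, TGANTCA, was found at bases -176 to -170 of Gstm5 and at -74 to -68 of Gstp1, and in 6.75% of all windows. The Tcf/Lef motif CTTTGAT, the sequence through which beta-catenin's partner factors bind DNA, was added to the search after the data were seen. It matched 0 of the 8 members and 3.21% of all windows. The Gstt1 window lies inside the longer annotated gene, the Mgst1 stretch falls in an annotated first exon, and 16 bases of the Gstp1 stretch do as well. The motifs overlap no other match in these windows.

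Summed counts ran from 42324200 to 55898774 per library. Every count is an even number, as it would be if both reads of a pair were counted. Levels are given as CPM, the count scaled to a common library total after TMM normalization. Ctnnb1 stood at 854.4 to 878.9 CPM in siCTL, 905.9 to 949.7 CPM in GSK126 and 19.13 to 19.33 CPM in siBcat, so the siBcat libraries match their label for the targeted gene. Of 10 stromal markers, 9 had a mean of at least 1 CPM in each group, while Thy1 was at 0 in all 9 libraries. Hepatocyte markers summed to at most 0.0875 CPM, with Alb and Ttr at 0. Endothelial markers summed to 0.424 to 0.617 CPM in siCTL, 0.427 to 0.707 CPM in GSK126 and 1.12 to 1.36 CPM in siBcat. Most of the siBcat sum was Kdr, at a mean of 1.018 CPM against 0.3521 CPM in siCTL. Tek was slightly higher in siBcat than in siCTL, and Pecam1, Cdh5 and Emcn were no higher. Haematopoietic markers (6 of 7 in the table, Ptprc at 0 throughout) summed to 2.73 to 3.01, 2.66 to 3.34 and 3.31 to 3.64 CPM, and epithelial markers (Epcam at 0 throughout) to 0.588 to 0.705, 0.349 to 0.495 and 0.0405 to 0.39 CPM in the same order. Within the haematopoietic list, the mean of Cd68 was lower in siBcat than in siCTL (0.9287 against 1.486 CPM). Those of Lyz2, Cd74, Csf1r and Itgam were higher. The part of all these markers in the differences below was not tested.

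Gene length here and below is the coding length deposited with the counts, not the span of the gene on the chromosome. Per kilobase of this length, Mgst1 was the highest member in siCTL, at 191 ± 7.36 CPM per kb (SD, n = 3). Gsto1 followed at 88.9 ± 2.21, Gstm2 at 83.6 ± 2.45, Gstm1 at 55.3 ± 1.83, Gstp1 at 51.7 ± 1.61 and Gstm5 at 35.3 ± 1.02 CPM per kb. Lower still were Gsta4 at 13.1 ± 0.93, Gstt1 at 7.73 ± 0.966, Gstk1 at 1.76 ± 0.303 and Gstt2 at 0.117 ± 0.0471 CPM per kb. In siCTL no neighbours in this order overlapped over their 3 libraries. The order was the same in GSK126, where Gsto1 overlapped Gstm2, Gstm1 overlapped Gstp1, and Gstp1 overlapped Gstm5. In siBcat, Mgst1 (149 ± 2.51 CPM per kb), Gsto1 (115 ± 0.176) and Gstm2 (73.5 ± 3.17) remained the highest, and Gstm1 stood below Gstp1 and Gstm5, at 24 ± 0.785 CPM per kb. Gsta4 (2.79 ± 0.397) and Gstt1 (2.45 ± 0.328 CPM per kb) overlapped there.

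The first question of the design is what beta-catenin depletion does to transcript levels. With beta-catenin siRNA, 3 members of 3 classes, Gsta4, Gstt1 and Gstm1, were lower by more than 2-fold, Gstm2, Gstm5, Gstp1 and Mgst1 were lower by less, and Gsto1 was higher. Of the 9 members that passed the filter on low counts, 8 were past the threshold (adjusted p under 0.05 over all 13240 genes tested), 7 of them lower and 1 higher. Of all genes tested, 35.2% were called, 17.5% as lower and 17.7% as higher. The same 8 members did not overlap between the libraries of both groups, as was the case for 55.2% of all genes (28% higher, 27.2% lower). The median log2 fold change of the 9 members was -0.35, against 0.002 over all genes. In bulk RNA, a change in the share of cells of a type and a change in RNA per cell cannot be told apart.

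**Figure D1:**
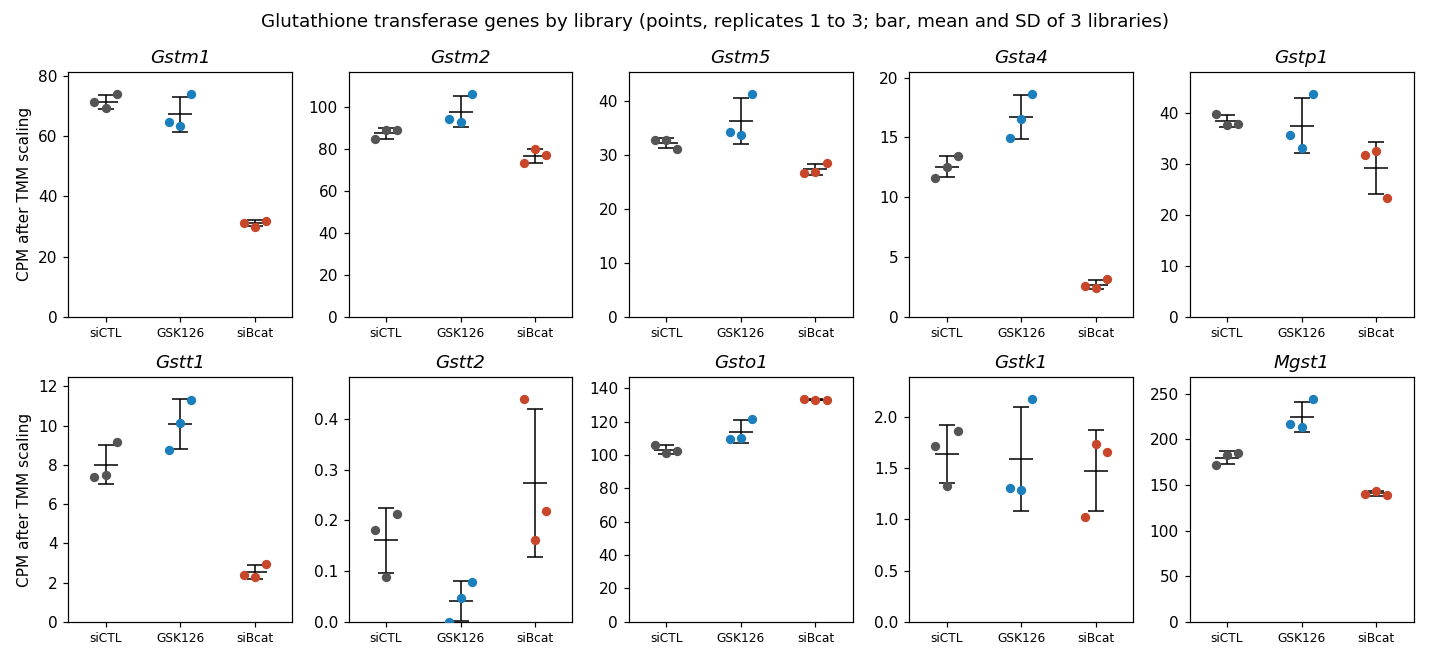
Level of each of the 10 members in CPM after TMM scaling (vertical axis, from 0, own scale per gene) in siCTL, GSK126 and siBcat. Points are the 3 libraries of a group and bars their mean and SD. Gsta4, Gstt1 and Gstm1 in siBcat lie far below both other groups, with Gsta4 at 2.388 to 3.107 CPM against 11.63 to 13.41 CPM in siCTL.

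Gsta4 encodes the alpha class enzyme that conjugates 4-hydroxynonenal, a toxic product of lipid peroxidation. It stood at 11.63, 12.56 and 13.41 CPM in siCTL and at 2.532, 2.388 and 3.107 CPM in siBcat. All 3 siBcat libraries lay below every siCTL library, and the mean fell from 12.53 ± 0.891 to 2.676 ± 0.38 CPM (SD, n = 3), 4.68-fold lower (log2 fold change -2.23, SE 0.12, 95% interval -2.50 to -1.96). Raw counts of Gsta4 in siBcat were 104, 118 and 142, and those of Gstt1 98, 114 and 134, the smallest behind any member that was called. Gstt1, a theta class enzyme acting on small halogenated compounds, stood at 7.375, 7.493 and 9.167 CPM in siCTL. In siBcat it was at 2.386, 2.307 and 2.932 CPM, again apart from every control library and 3.15-fold lower (log2 fold change -1.66, SE 0.14, interval -1.97 to -1.35). The other theta class member, Gstt2, was near the limit of detection and was not tested. The siCTL libraries had 8, 4 and 10 counts, those of GSK126 0, 2 and 4, and those of siBcat 18, 8 and 10, so that siBcat overlapped siCTL.

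The 3 mu class members, enzymes with broad activity towards electrophiles, differed by unequal amounts. Gstm1 stood at 71.35, 69.33 and 74.05 CPM in siCTL and at 31.31, 29.99 and 31.99 CPM in siBcat. With no overlap, its mean was 2.3-fold lower, at 31.1 ± 1.02 against 71.58 ± 2.37 CPM (log2 fold change -1.20, SE 0.07, interval -1.35 to -1.06). Gstm2 was at 84.61, 89.08 and 89.03 CPM in siCTL and at 73.49, 80.11 and 77.2 CPM in siBcat. The groups of Gstm2 stood apart by a small gap, 1.14-fold (log2 fold change -0.19, SE 0.06, interval -0.32 to -0.05). For Gstm5 the mean was 32.18 ± 0.925 CPM in siCTL and 27.32 ± 1.06 CPM in siBcat, 1.18-fold lower (log2 fold change -0.24, SE 0.08), also without overlap. The interval of Gstm1 does not reach those of Gstm2 and Gstm5, which lie in the same group of mu class genes on chromosome 3.

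Gstp1, a pi class enzyme that also binds the stress kinase JNK, stood at 39.82, 37.64 and 37.85 CPM in siCTL and at 31.7, 32.63 and 23.41 CPM in siBcat. The siBcat libraries lay below the controls, with replicate 3 well under the other two (log2 fold change -0.39, SE 0.13, interval -0.67 to -0.11). Without siBcat replicate 3 the difference was -0.26, and Gstp1 was no longer past the threshold. The call was also lost when any siCTL library was left out, and with only the 2 groups compared. Mgst1, the microsomal transferase and peroxidase of the endoplasmic reticulum and outer mitochondrial membrane, was at 171.9, 182.7 and 184.8 CPM in siCTL and at 139.6, 143.5 and 139.1 CPM in siBcat. Its groups did not overlap, with siBcat 1.28-fold lower (log2 fold change -0.35, SE 0.06, interval -0.48 to -0.23). Gstk1, the mitochondrial and peroxisomal kappa class enzyme, overlapped between groups at 1.322 to 1.867 CPM in siCTL and 1.023 to 1.741 CPM in siBcat. Its log2 fold change of -0.14 had an interval of -0.71 to 0.43, which includes differences of the size seen in Mgst1 and Gstp1.

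Gsto1 went the other way. Omega class enzymes carry a cysteine in the active site and act more as thiol transferases and dehydroascorbate reductases than by conjugation. Gsto1 stood at 106.1, 101.2 and 102.3 CPM in siCTL and at 133.3, 132.9 and 133.2 CPM in siBcat. The siBcat libraries lay above every control library, with hardly any spread among them, and the mean was 1.29-fold higher, at 133.1 ± 0.204 against 103.2 ± 2.56 CPM (log2 fold change 0.37, SE 0.05, interval 0.25 to 0.48). Gsta4, Gstm1, Gstt1, Gsto1 and Mgst1 were past the threshold in all 22 alternative analyses run for single genes, and Gstm2, Gstm5 and Gstp1 in 17 of 22 each. Without siCTL replicate 2, 5 members were called in place of 8, the calls of Gstm2, Gstm5 and Gstp1 being lost. Leaving out a library touches the calls of all genes. Counts given here and below for left-out libraries are therefore not read as particular to a list.

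**Figure D2:**
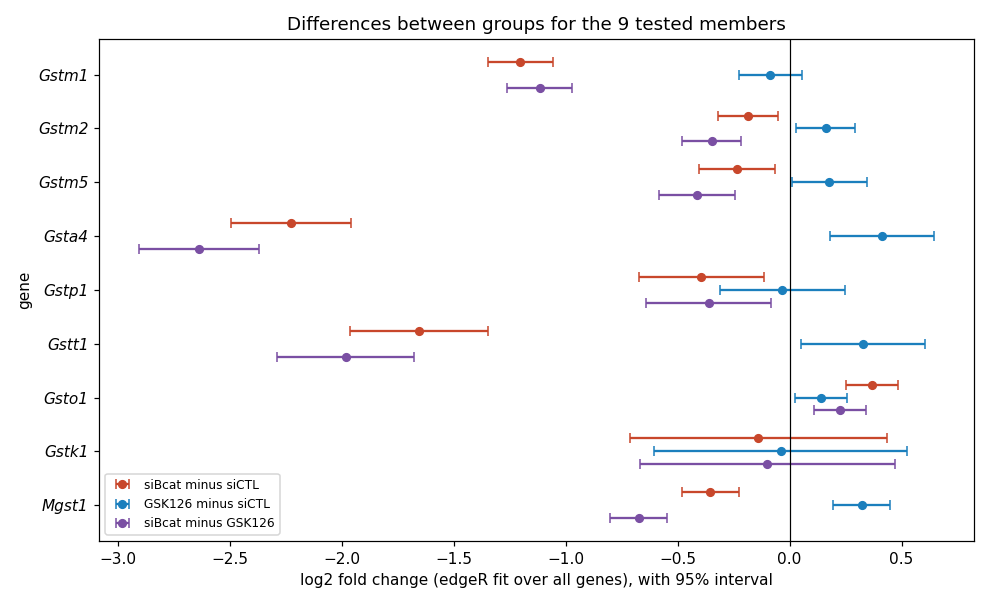
Log2 fold change of the 9 tested members (horizontal axis) in the 3 comparisons between groups, as points with 95% intervals from the fit over all genes. Gsta4 (-2.23), Gstt1 (-1.66) and Gstm1 (-1.20) lie far to the left in siBcat minus siCTL, and Gsto1 (0.37) lies to the right.

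The second question is what inhibition of Ezh2 does, with the same control libraries on the other side. With GSK126, Mgst1 and Gsta4 were higher than in siCTL, by 1.25-fold and 1.33-fold, and the other 7 tested members were not past the threshold. The count of 2 of 9, both higher, stands beside 25% of all genes called, 14.3% as higher and 10.7% as lower. For 5 members (Gsta4, Gstm2, Gstm5, Gsto1 and Mgst1) all GSK126 libraries lay above all siCTL libraries, and for 0 members below, against 21.9% and 20.2% of all genes (42.1% together). The median log2 fold change of the members was 0.16, against 0.006 over all genes.

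Mgst1 stood at 216.6, 213.9 and 243.7 CPM with GSK126, against the 171.9 to 184.8 CPM of siCTL given above. Every GSK126 library was above every control, with replicate 3 the highest (log2 fold change 0.32, SE 0.06, interval 0.20 to 0.45). Gsta4 was at 14.91, 16.54 and 18.62 CPM, also above all controls, with a mean of 16.69 ± 1.86 CPM (log2 fold change 0.41, SE 0.11, interval 0.18 to 0.64). Gstt1, at 8.762, 10.15 and 11.29 CPM, overlapped siCTL in 1 library and differed by 0.33 (SE 0.13, interval 0.05 to 0.60). Among the mu class genes, Gstm2 was at 94.29, 93.12 and 106.3 CPM and Gstm5 at 34.16, 33.67 and 41.28 CPM, both just above siCTL outside replicate 3, while Gstm1, at 64.72, 63.49 and 74.11 CPM, spanned the control range. Their log2 fold changes were 0.16 (SE 0.06), 0.18 (SE 0.08) and -0.09 (interval -0.23 to 0.06). Gsto1 was at 109.8, 109.9 and 121.8 CPM (log2 fold change 0.14, interval 0.03 to 0.26). Gstp1, at 35.72, 33.26 and 43.77 CPM, and Gstk1, at 1.307, 1.286 and 2.173 CPM, had replicate 3 above all siCTL libraries and the other 2 below all of them. Gstp1 differed by -0.03 (interval -0.31 to 0.25) and Gstk1 by -0.04.

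GSK126 replicate 3 stands apart in a way that touches these genes. All 9 tested members lay above their group mean in that library, with a median deviation of 0.16 (log2). In GSK126 replicates 1 and 2, 0 and 1 of 9 did. Deviations are taken from the mean of a library's own group. Those of replicates 1 and 2 therefore mirror replicate 3 and are no separate observation. Deviations there ran with coding length. The shortest 10% of genes (at most 1152 bases) had a median of 0.17 and the longest 10% a median of -0.23. Of the variance of the deviations, 21.4% followed coding length. That share was 7.03% and 9.24% in the other GSK126 libraries, where it mirrors replicate 3 in the same way. In the siCTL and siBcat libraries it was 0.053 to 0.69%. The members have short coding lengths, of 744 to 1370 bases, and 10 of 10 lie below the median of 2851 bases over tested genes. Without replicate 3 the members' median in GSK126 against siCTL was 0.09. With the trend on length removed from all libraries it was 0.04. The trend was fitted on deviations from the mean of all libraries, so its removal also takes out differences between groups that run with length. In siBcat against siCTL it moved the members' median from -0.35 to -0.44. Mgst1 was higher by 0.26 without GSK126 replicate 3 and by 0.19 with the trend removed, and it was called in all 22 alternatives. The corresponding values of Gsta4 were 0.32 and 0.28, both called, and 0.28 with both changes together, not called. Gsta4 also lost its call without siCTL replicate 1 or without siCTL replicate 2, which left 1 member called in place of 2. Gstm2 came to 0.10 and 0.04, Gstm5 to 0.07 and 0.04, and Gsto1 to 0.09 and 0.03. Gstt1 came to 0.23 and 0.20, neither past the threshold, whereas it was called without siCTL replicate 3 and without GSK126 replicate 1. Gstm1 moved further below siCTL, to -0.16 and -0.19, and was past the threshold in both. Gstp1 came to -0.16 and -0.18 and Gstk1 to -0.34 and -0.19, without a call. The small positive differences of Gstm2, Gstm5 and Gsto1 with GSK126 therefore depended on how replicate 3 and gene length were treated.

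**Figure D3:**
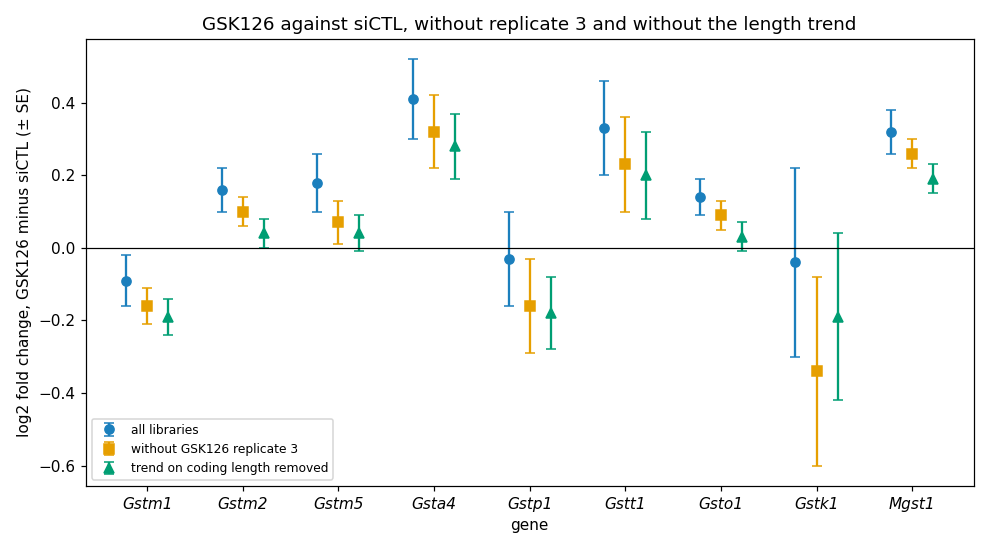
Log2 fold change of GSK126 against siCTL (vertical axis, ± SE) for the 9 tested members. Settings are all libraries, without GSK126 replicate 3, and with the trend on the deposited coding length removed. Mgst1 (0.32, 0.26 and 0.19) and Gsta4 (0.41, 0.32 and 0.28) stay above 0 in all 3 settings, while Gstm2, Gstm5 and Gsto1 come close to 0.

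Set directly against each other, siBcat and GSK126 differed in 8 of the 9 tested members, 7 lower and 1 higher in siBcat, beside 41.2% of all genes called, 21.9% as lower and 19.3% as higher. The 8 members also did not overlap, as for 52.5% of all genes (25.3% higher, 27.2% lower). Over all genes 46.8% of the calls were higher in siBcat, and 33.4% when libraries were scaled by their size alone. Gsta4 was 6.23-fold lower in siBcat than with GSK126 (log2 fold change -2.64, SE 0.12), Gstt1 3.96-fold (-1.98, SE 0.14) and Gstm1 2.17-fold (-1.12, SE 0.07). Mgst1 was lower by a factor of 1.6, Gstm5 of 1.33, Gstp1 of 1.29 and Gstm2 of 1.27, and Gsto1 was 1.17-fold higher. Gstp1 was past the threshold in 12 of the 22 alternatives and lost its call, among others, when any siCTL library, GSK126 replicate 1, GSK126 replicate 3 or siBcat replicate 3 was left out. The members' median was -0.41, against -0.012 over all genes. The group means ran from siBcat through siCTL to GSK126 in 5 members (Gsta4, Gstm2, Gstm5, Gstt1 and Mgst1) and from siBcat through GSK126 to siCTL in 3 (Gstm1, Gstp1 and Gstk1). Gsto1 had its lowest mean in siCTL and its highest in siBcat.

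Gsta4 showed the largest difference of any member in both treatments. Similar profiles were sought among 11970 tested genes, without the member, family, pathway and Nrf2 genes and without predicted genes. The most similar over the 9 libraries were Rcan2 (Pearson r of log2 CPM 0.996), Blmh (0.995), Rbpms (0.995) and Akr1c18 (0.995). The member Gstt1, left out of this ranking, had a rounded r of 1 with Gsta4. Rcan2 had means of 92.07, 108.6 and 35.08 CPM in siCTL, GSK126 and siBcat, and Akr1c18, an aldo-keto reductase, of 21.91, 26.93 and 9.498 CPM. The 9 libraries form 3 groups and share their scaling, so such values reflect mainly the group means.

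Other members of the family were taken from a list of 21 genes, 19 of them in the table and 13 tested. In siBcat against siCTL, 2 were higher and 4 lower (17.7% and 17.5% of all genes), with a median of -0.22, by edgeR's quasi-likelihood test with Benjamini-Hochberg adjustment, as for all adjusted p below. Gstt3, a theta class gene of the same cluster as Gstt1 (chr10:75774122-75781414), was at 5.475, 4.716 and 4.753 CPM in siCTL and at 6.964, 7.974 and 7.484 CPM in siBcat. It rose (log2 fold change 0.59, SE 0.12, adjusted p = 0.00164) where Gstt1 was lower. Of the microsomal genes, Mgst2 fell from 11.78 ± 0.514 to 5.63 ± 0.635 CPM (log2 fold change -1.06, SE 0.12, adjusted p = 2.85e-05). Mgst3 fell less, from 75.16 ± 3.19 to 61.61 ± 1.34 CPM (-0.29, SE 0.07, adjusted p = 0.00606). Ptges, the MAPEG enzyme that makes prostaglandin E2, fell by 0.45 on the log2 scale (SE 0.08, adjusted p = 0.000713). Ltc4s, which makes leukotriene C4, rose by 1.13 (SE 0.14, adjusted p = 5.16e-05) from a mean of 3.011 to 6.58 CPM. Alox5ap, a MAPEG protein that serves leukotriene synthesis, fell from 1.098 to 0.1681 CPM (log2 fold change -2.73, SE 0.37, adjusted p = 0.000102). Its raw counts in siBcat were only 12, 4 and 6, so the size of this fall is uncertain. Alox5ap and Ltc4s are best known from leukocytes, and the haematopoietic marker sums given above were 2.73 to 3.01 CPM in siCTL and 3.31 to 3.64 CPM in siBcat, whose part was not tested.

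With GSK126, 3 of these genes were higher and 1 lower than in siCTL (median 0.08), beside 14.3% and 10.7% of all genes. Mgst3 stood at 114.6, 110.7 and 133.3 CPM against 71.94, 78.32 and 75.2 CPM in siCTL, all above the controls (log2 fold change 0.67, SE 0.07, adjusted p = 1.91e-05). Ltc4s rose by 0.89 (SE 0.14, adjusted p = 0.000605) to 5.584 ± 0.461 CPM. Gstt3 was past the threshold (0.36, SE 0.12, adjusted p = 0.0385) but lost its call with the trend on length removed (adjusted p = 0.0513) and without GSK126 replicate 3, where it differed by 0.26. It lost it as well when any 1 of siCTL replicates 2 and 3, GSK126 replicate 1 or the siBcat libraries was left out. With only the 2 groups compared, Gstt3 was not called either (adjusted p = 0.0824). Ptges fell by 0.27 (SE 0.08, adjusted p = 0.0211), and this call ended without siCTL replicate 1 (0.0678), GSK126 replicate 1 (0.0564) or GSK126 replicate 2 (0.0511). Without GSK126 replicate 1, 2 of the other family genes were called in place of 4. Between siBcat and GSK126, 4 of the 13 genes were called, beside 41.2% of all genes (21.9% lower, 19.3% higher). All 4 were lower in siBcat: Mgst3 (log2 fold change -0.96, adjusted p = 3.23e-07), Mgst2 (-1.18, 8.05e-06), Gstm4 (-0.38, 0.00296) and Alox5ap (-2.06, 0.000932). The remaining alpha class genes were hardly present, with Gsta1 and Gsta2 at 0 counts in all 9 libraries and Gsta3 at 0 to 10 counts. Gstm3, Gstm6 and Gstt4 had at most 2, 6 and 4 counts in any library.

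**Figure D4:**
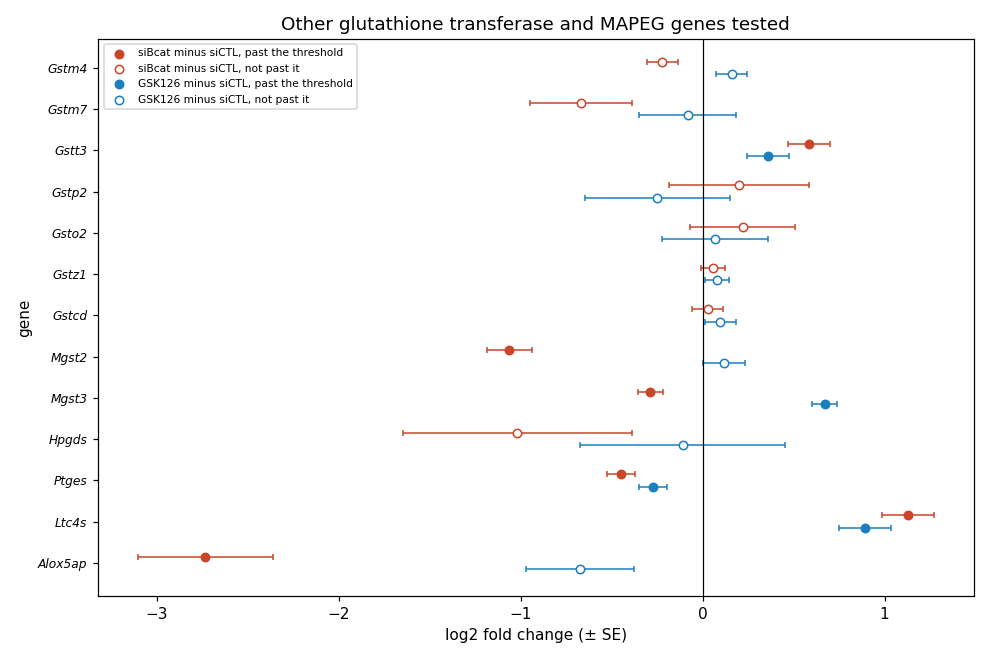
Log2 fold change (horizontal axis, ± SE) of the 13 other tested glutathione transferase and MAPEG genes in siBcat minus siCTL and GSK126 minus siCTL. Filled points passed the threshold and open points did not. Gstt3 (0.59) and Ltc4s (1.13) lie above 0 in siBcat, and Mgst2 (-1.06) and Alox5ap (-2.73) below. Alox5ap had raw counts of only 12, 4 and 6 in siBcat.

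The wider glutathione pathway was described with a list of 39 genes, 35 of them tested. In siBcat against siCTL, 11 were higher and 5 lower (median 0.09), beside 17.7% and 17.5% of all genes tested. With lists and steps this small, the counts below are a description. Of 7 genes of glutathione synthesis 3 were called, all higher, among them Gss, the glutathione synthetase, which rose from 53.94 ± 2.93 to 76.18 ± 0.99 CPM (log2 fold change 0.50, SE 0.07, adjusted p = 8.9e-05). Of 10 genes of glutathione reduction and peroxidases 3 were called, again all higher. Of 9 genes that break glutathione or its conjugates down, 4 were higher (Chac1, Chac2, Lap3 and Ggt7) and 3 lower (Ggt5, Anpep and Dpep1). The lower ones are enzymes of the cell surface that process glutathione conjugates in turn. Ggt7, a gene related to Ggt5, went the other way (log2 fold change 0.66, SE 0.16, adjusted p = 0.00532). Ggt5, a gamma-glutamyltransferase, stood at 160.4, 159.3 and 157.3 CPM in siCTL against 50.45, 51.33 and 50.99 CPM in the siBcat libraries (log2 fold change -1.64, SE 0.05, adjusted p = 4.35e-10). Anpep, an aminopeptidase, fell from 12.41 ± 0.461 to 3.201 ± 0.487 CPM (-1.95, SE 0.11, adjusted p = 4.93e-08), and Dpep1, a dipeptidase, from 289.6 ± 13.6 to 178.6 ± 4.2 CPM (-0.70, SE 0.05, adjusted p = 5.61e-07). Of 6 genes linked to conjugate export, 1 was higher and 2 lower, among them the transporter gene Abcc5 (-0.71, SE 0.06, adjusted p = 1.25e-06).

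With GSK126, 6 pathway genes were higher and 6 lower than in siCTL (median 0), beside 14.3% and 10.7% of all genes. Ggt5 fell here too, to 99.63, 100.8 and 104.7 CPM (log2 fold change -0.64, SE 0.05, adjusted p = 1.16e-06), while Ggt7, a related gene, rose from 3.743 ± 0.576 to 7.787 ± 0.922 CPM (1.06, SE 0.15, adjusted p = 0.000304). Of the export genes 3 were lower and 1 higher. Abcc1, the main glutathione conjugate pump, was at 127.5, 129.7 and 102.9 CPM with GSK126 against 183.1 to 188.8 CPM in siCTL (-0.63, SE 0.08, adjusted p = 6.83e-05), and Abcc4 fell by 0.53 (SE 0.08, adjusted p = 0.000485). Slc7a11, which imports the cystine needed for glutathione, fell from 5.878 ± 0.165 to 3.577 ± 0.747 CPM (-0.72, SE 0.15, adjusted p = 0.00345). Replicate 3 was the lowest GSK126 library for Abcc1, Abcc4 and Slc7a11, and all 3 calls held without it. These genes have long coding lengths, of 5935, 5895 and 9227 bases against a median of 2851 bases over tested genes. The longest genes ran low in replicate 3, and values with the length trend removed are not given here for these 3. Against GSK126, siBcat had 10 pathway genes higher and 7 lower (median 0.05, beside 19.3% and 21.9% of all genes), with Ggt5 (50.92 ± 0.441 against 101.7 ± 2.64 CPM), Anpep (-1.95), Dpep1 (-0.86) and Abcc5 (-0.50) lower and Abcc1 (0.66) higher.

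**Figure D5:**
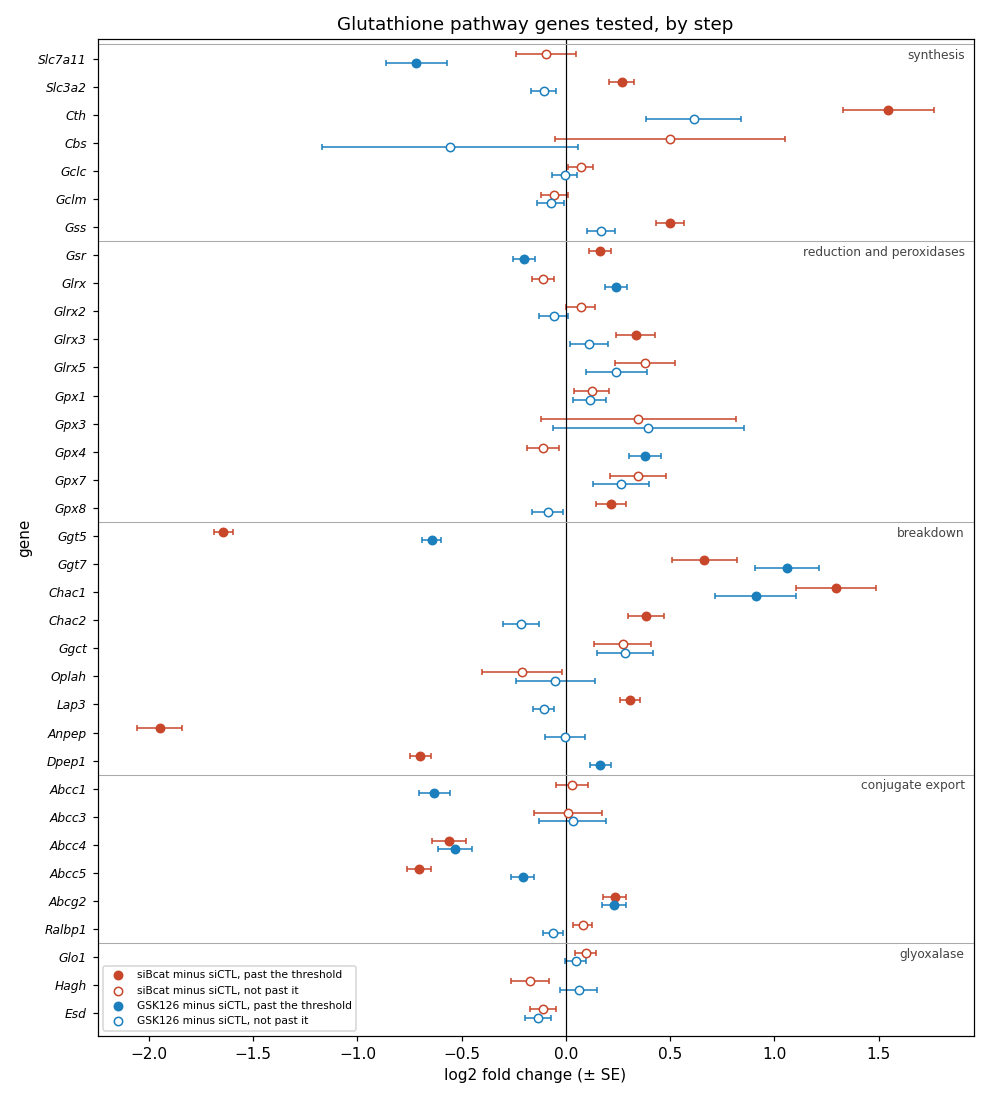
Log2 fold change (horizontal axis, ± SE) of the 35 tested glutathione pathway genes, grouped by step, in siBcat minus siCTL and GSK126 minus siCTL. Filled points passed the threshold. In the breakdown group Ggt5 (-1.64) and Anpep (-1.95) lie far below 0 in siBcat, and Chac1 (1.3) lies above 0.

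Nrf2 and genes commonly placed under its control made up a list of 32 genes, all tested. Their changes did not run one way. In siBcat against siCTL, 7 were higher and 10 lower (median -0.06), beside 17.7% and 17.5% of all genes. Nqo1, a quinone reductase, rose from 27.84 ± 2.77 to 43.88 ± 2.76 CPM (log2 fold change 0.66, SE 0.08, adjusted p = 2.52e-05), and Hmox1, the haem oxygenase, from 303.3 ± 5.71 to 399.7 ± 17.5 CPM (0.40, SE 0.05, adjusted p = 7.26e-05). Maff, which encodes a small Maf partner of Nrf2, rose by 0.57 (SE 0.08, adjusted p = 0.000165). Nfe2l2, the gene of Nrf2 itself, fell by 0.41 (SE 0.05, adjusted p = 4.6e-05), and Bach1, a repressor at the same elements, by 0.43 (SE 0.06, adjusted p = 0.000115). The count of 17 called genes was 11 without siCTL replicate 2. With GSK126, 5 were higher and 6 lower than in siCTL (median 0.03, beside 14.3% and 10.7% of all genes), and 7 rather than 11 were called without siCTL replicate 2. Nqo1 (0.47, SE 0.08, adjusted p = 0.000667) and Maff (0.42, SE 0.08, adjusted p = 0.00259) rose, and Ugdh (-0.25, SE 0.05, adjusted p = 0.00176), G6pdx (-0.21, SE 0.05, adjusted p = 0.00904) and Txnrd1 (-0.21, SE 0.05, adjusted p = 0.0143) fell. Between siBcat and GSK126, 8 were higher in siBcat and 10 lower (median -0.11), beside 19.3% and 21.9% of all genes. Fth1 (0.49), Hmox1 (0.45), Srxn1 (0.36) and G6pdx (0.34) were higher and Nfe2l2 (-0.43) was lower.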

How the data were processed

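RNA sequencing counts of 9 libraries were used, 3 in each of 3 groups that follow the sample titles. Per the submitters' processing notes, the tools were bcl2fastq, TopHat2 2.0.6 and HTSeq, on mm10. For their order, the strand setting and the treatment of reads with several matches, nothing is given in the sources used. In the deposited table each gene has a raw count and the authors' RPKM for each library. From the RPKM only the library totals were recovered, of which the counts make up 89.8 to 90.7%. A further 6 per-sample columns, of a combination treatment, and the H3K27me3 libraries were not used here. Tests used edgeR 4.0.16 in R 4.3.3: filterByExpr (minimum count 10, minimum total 15), TMM scaling, and a robust quasi-likelihood fit over all 9 libraries without a replicate block. Of the entries, 13240 were tested and 10118 were not, with a common biological coefficient of variation of 8.12%. Adjustment was by Benjamini-Hochberg across the genes tested in each comparison, and genes with an adjusted p under 0.05 were called. P values judge differences between groups against the variation among these cultures.

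The members, gene lists and tests were chosen with earlier results of these data known. The genes named are the members, the other family genes, and for the pathway and Nrf2 lists up to 5 called genes per comparison with the smallest adjusted p. For the breakdown step in siBcat against siCTL, all called genes are named. Similar profiles were ranked for the member with the largest difference, among tested genes outside the family, pathway and Nrf2 lists. Promoters came from RefSeq, gene models from GENCODE M21. The 22 alternatives run for single genes were other scalings and filters, DESeq2 1.42.0, limma-voom (limma 3.58.1), robust estimation off, a replicate block, a trend on gene length removed (loess, span 0.5), halved counts, only the 2 groups compared, each library left out in turn, and, added after the data were seen, the length trend and GSK126 replicate 3 removed together. A fold change of at least 2 was also tried for counts of calls. The steps were tested on simulated data. Motif searches used Python 3.11.15, tables pandas 2.3.3 with numpy 2.4.6, intervals scipy 1.17.1 and figures matplotlib 3.10.9.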

Additional observations from a re-analysis of the deposited data

How the results depend on the processing

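With a fold change of at least 2 required, the members called came to 3, 0 and 3 in siBcat against siCTL, GSK126 against siCTL and siBcat against GSK126, the pathway genes to 4, 1 and 1, and all genes to 603, 359 and 797. With 1 library left out, the members called ranged from 5 to 8, from 1 to 3 and from 7 to 9 in the same order, the 9 including Gstt2, which then passed the filter. With a replicate block, members called were 8, 3 and 7 (in place of 8, 2 and 8) and all genes called 4514, 3135 and 5267. Under the block Gstp1 lost its call in siBcat against GSK126, and in GSK126 against siCTL Gstt1 gained one and Gstt3 lost its own (adjusted p = 0.0614), the causes not being tested. Deviations of same-numbered libraries correlated by only -0.03 to 0.07, and not every library correlated best with its own number. This check showed no sign of a pairing by number. It cannot exclude a weak one, and the labels do not state any. The other counts of calls, of all genes and of the lists, stayed within 1.5 times their reported value, apart from those named above for a left-out library and the Nrf2 list, with 27 genes called in siBcat against siCTL when the length trend and GSK126 replicate 3 were removed together. Differences that changed sign all belong to genes without a call. Among the members, over all 22 alternatives, Gstk1 ranged from -0.29 to 0.05, from -0.39 to 0.08 and from -0.23 to 0.20 in the 3 comparisons in the order above (0.20 without GSK126 replicate 3), and Gstp1 from -0.21 to 0.04 in GSK126 against siCTL. In siBcat against siCTL, Gstcd reached -0.01 with scaling by library size only, and with 1 library left out Gstp2 ranged from -0.08 to 0.55 and Gsto2 from -0.20 to 0.44. In GSK126 against siCTL, removal of the length trend gave -0.03 for Gsto2 and -0.05 for Mgst2, and with replicate 3 left out as well -0.08 for Mgst2 and 0.10 for Hpgds. With 1 library left out there, Gsto2 ranged from -0.02 to 0.16, Gstp2 from -0.46 to 0.10, Hpgds from -0.71 to 0.42, Gstm7 from -0.26 to 0.13 and Mgst2 from -0.03 to 0.18. In siBcat against GSK126, Gstz1 came to 0.01 without the length trend, and with 1 library left out Gstz1 ranged from -0.05 to 0.03, Gstcd from -0.12 to 0.03 and Gsto2 from -0.26 to 0.38. Depth limits Gstk1 and Gstt2, the latter at 0 to 18 counts.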
